A study of Mus musculus with 12 samples.

Results

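Clock output transcription factors carry the daily timing of the circadian clock to other genes, and 8 of them, chosen by name, are described here: Dbp, Tef, Hlf, Nfil3, Ciart, Bhlhe40, Bhlhe41 and Rora. They are 8 of the 57490 genes in the count table of a kidney RNA-seq study of db/db mice, which asked how diabetes changes kidney transcripts and how a herbal water extract, Yiqi Huoxue Yangyin decoction (YHY), alters them. RNA came from 12 male mice aged 13 weeks, 4 in each of 3 groups. Ctrl mice were non-diabetic db/m animals on the BKS background, whose genotype label reads db/m (wild-type) while the housing notes call them heterozygote db/+, and Model and YHY mice were BKS.Cg-Dock7m +/+ Leprdb/JNju (db/db) animals. The db/db mice lack a working leptin receptor, overeat and become obese and diabetic, and only those with high random blood glucose entered the study. YHY mice were gavaged once daily for 4 weeks with the water extract at 6.24 g/mL, and Ctrl and Model mice with the same volume of purified water, which was 50 µL for each 10 g that a mouse weighed. The paper states doses per kg, and which of its dose groups was sequenced is not given in the sources used here. The tissue is kidney, whole tissue, in the sample labels and renal cortex in the series description. All mice lived under a 12-hour light cycle with lights on at 7 in the morning, and the hour of tissue collection is not given in the sources used here.

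In the core loop of the clock, CLOCK and BMAL1 (encoded by Arntl) bind E-boxes and switch on the Per and Cry genes, whose proteins then repress them, while REV-ERB proteins (Nr1d1, Nr1d2) repress and ROR proteins activate Arntl through ROR elements. The PAR bZIP proteins DBP, TEF and HLF activate genes through D-box sequences, NFIL3 binds the same sequences and represses, and CIART, BHLHE40 and BHLHE41 repress genes driven by CLOCK and BMAL1. In the kidney this system sets daily rhythms of sodium, potassium and water excretion, and transcripts such as Dbp swing steeply over the day, so a level taken at a single time is a snapshot of a moving quantity.

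Library totals ran from 24415658 counts in Model 4 to 33276634 in Ctrl 1. Levels are CPM, the counts of a gene per 1000000 counts of its library, with library sizes first multiplied by TMM factors (0.720 to 1.35). Transcripts of the mitochondrial genome took 18.6%, 22.7%, 18.4% and 18.5% of the counts of Ctrl 1 to 4, 41.2%, 58.9%, 55.3% and 53.4% of Model 1 to 4, and 53.8%, 64.6%, 54.6% and 54.2% of YHY 1 to 4. This share separated the Ctrl mice from all db/db mice, and with these transcripts removed from the counts the same members were called in each comparison. Other ways in which it could bear on the differences between genes were not tested. The labelled tissue was checked against 12 kidney markers, all of which passed the filter on low counts. The most abundant was Slc34a1, the phosphate transporter of the proximal tubule, at 966 to 2792 CPM.

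All 8 genes are protein-coding, and all 8 passed the filter on low counts. In GRCm39 coordinates as the deposited table lists them, Dbp (ENSMUSG00000059824) lies on chromosome 7 from 45354512 to 45359627, Tef (ENSMUSG00000022389) on chromosome 15 from 81686622 to 81711064 and Hlf (ENSMUSG00000003949) on chromosome 11 from 90227362 to 90281721. Nfil3 (ENSMUSG00000056749) lies on chromosome 13 from 53121245 to 53135109. Ciart (ENSMUSG00000038550) lies on chromosome 3 from 95785815 to 95789563, Bhlhe40 (ENSMUSG00000030103) on chromosome 6 from 108637590 to 108643886 and Bhlhe41 (ENSMUSG00000030256) on the same chromosome from 145803969 to 145811284. Rora (ENSMUSG00000032238) spans chromosome 9 from 68561068 to 69295528. Whether the counting used read strand is not stated, and 6 of the 8 overlap a gene on the opposite strand, so reads from the overlap cannot be told apart: Sphk2 with Dbp, Gm17597 with Tef, C920021L13Rik with Ciart, 0610040F04Rik with Bhlhe40, Gm43909 with Bhlhe41 and Gm15511 with Rora.

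Promoter sequences are printed for the 4 members whose windows held a clock motif. In Model against Ctrl alone these members were called in opposite directions, with Tef, Ciart and Bhlhe41 higher and Nfil3 lower. RefSeq promoters of build GRCm38.p6, 250 bases before to 50 after a gene's start, were matched by symbol for 7 of the 8 genes, with 8 windows in all because Tef has 2. Each was searched on both strands for the E-box CACGTG, the D-box TTANNTAA and the ROR element TNGGTCA. Of 32851 mouse promoters of 300 bases, 7.15% held the E-box, 6.003% the D-box and 11.0% the ROR element. Capitals mark the matches, and each sequence runs 5′ to 3′ on the gene's strand: Ciart on the minus strand at chr3:95882179-95882478, Bhlhe41 on the minus strand at chr6:145865371-145865670, Tef on the plus strand at chr15:81802423-81802722 and chr15:81811164-81811463, and Nfil3 on the minus strand at chr13:52980990-52981289.
Ciart promoter: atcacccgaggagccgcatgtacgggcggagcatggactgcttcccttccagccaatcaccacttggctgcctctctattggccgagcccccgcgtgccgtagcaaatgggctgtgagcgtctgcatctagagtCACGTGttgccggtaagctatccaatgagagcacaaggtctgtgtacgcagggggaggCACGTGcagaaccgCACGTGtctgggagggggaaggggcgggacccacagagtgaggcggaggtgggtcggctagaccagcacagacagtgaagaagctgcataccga
Bhlhe41 promoter: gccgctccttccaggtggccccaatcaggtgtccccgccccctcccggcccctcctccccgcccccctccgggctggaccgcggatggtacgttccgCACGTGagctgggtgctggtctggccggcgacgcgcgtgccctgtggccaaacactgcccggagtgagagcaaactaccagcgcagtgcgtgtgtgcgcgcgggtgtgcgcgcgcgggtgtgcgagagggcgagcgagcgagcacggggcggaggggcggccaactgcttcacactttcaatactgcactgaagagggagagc
Tef promoter, first window: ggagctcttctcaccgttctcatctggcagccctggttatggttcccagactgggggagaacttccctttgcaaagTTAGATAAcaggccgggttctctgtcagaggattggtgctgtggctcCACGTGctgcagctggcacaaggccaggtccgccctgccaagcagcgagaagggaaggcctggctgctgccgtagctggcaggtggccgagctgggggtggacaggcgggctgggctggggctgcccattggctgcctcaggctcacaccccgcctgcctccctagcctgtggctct
Tef promoter, second window: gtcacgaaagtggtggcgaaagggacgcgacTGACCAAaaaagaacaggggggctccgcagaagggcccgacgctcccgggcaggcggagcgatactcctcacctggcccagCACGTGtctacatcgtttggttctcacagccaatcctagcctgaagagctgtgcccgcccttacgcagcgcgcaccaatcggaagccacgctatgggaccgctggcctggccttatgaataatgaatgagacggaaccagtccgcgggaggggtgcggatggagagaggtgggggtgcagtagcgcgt
Nfil3 promoter: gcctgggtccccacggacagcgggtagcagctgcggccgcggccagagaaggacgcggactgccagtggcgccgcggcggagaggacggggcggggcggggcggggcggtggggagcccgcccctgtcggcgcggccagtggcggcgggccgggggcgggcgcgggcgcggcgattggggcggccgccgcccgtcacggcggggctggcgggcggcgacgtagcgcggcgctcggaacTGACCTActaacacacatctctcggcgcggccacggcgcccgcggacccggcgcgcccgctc
The Ciart window held 3 E-boxes, which began 116, 58 and 44 bases before the start. Bhlhe41 held 1, 153 bases before the start, and each Tef window held 1, 127 and 138 bases before it. The first Tef window also held the D-box, and the second held a ROR element on the opposite strand. Nfil3 held a ROR element on the opposite strand, 12 bases before the start. The windows of Dbp, Hlf and Rora held none of these letters, which says nothing of sites elsewhere in those genes. These matches describe the sequence and are no evidence of binding.

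Per kilobase of the deposited gene length, Tef had the highest mean level of the 8 in every group, with 16.4 ± 5.57 RPKM for Ctrl, 34.1 ± 6.54 for Model and 33.5 ± 15.0 for YHY (SD, n = 4). In Ctrl it was followed by Hlf (10.3 RPKM), Bhlhe40 (5.58), Dbp (4.88), Nfil3 (3.39), Rora (2.10), Ciart (0.266) and Bhlhe41 (0.260). Of the 7 pairs of neighbours in this order, Rora and Ciart alone did not overlap between mice. In Model, Dbp was at 13.9 ± 2.19 RPKM and Nfil3 at 1.14 ± 0.324 RPKM, and the order was Tef, Dbp, Hlf, Bhlhe40, Ciart, Rora, Nfil3, Bhlhe41. There 4 of the 7 neighbouring pairs did not overlap, namely Tef and Dbp, Dbp and Hlf, Hlf and Bhlhe40, and Ciart and Rora. In YHY the order was Tef, Bhlhe40, Nfil3, Hlf, Ciart, Dbp, Rora, Bhlhe41, where only the first pair and the last pair did not overlap. There Dbp was at 3.21 ± 2.52 RPKM and Nfil3 at 5.51 ± 3.15 RPKM.

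**Figure D1:**
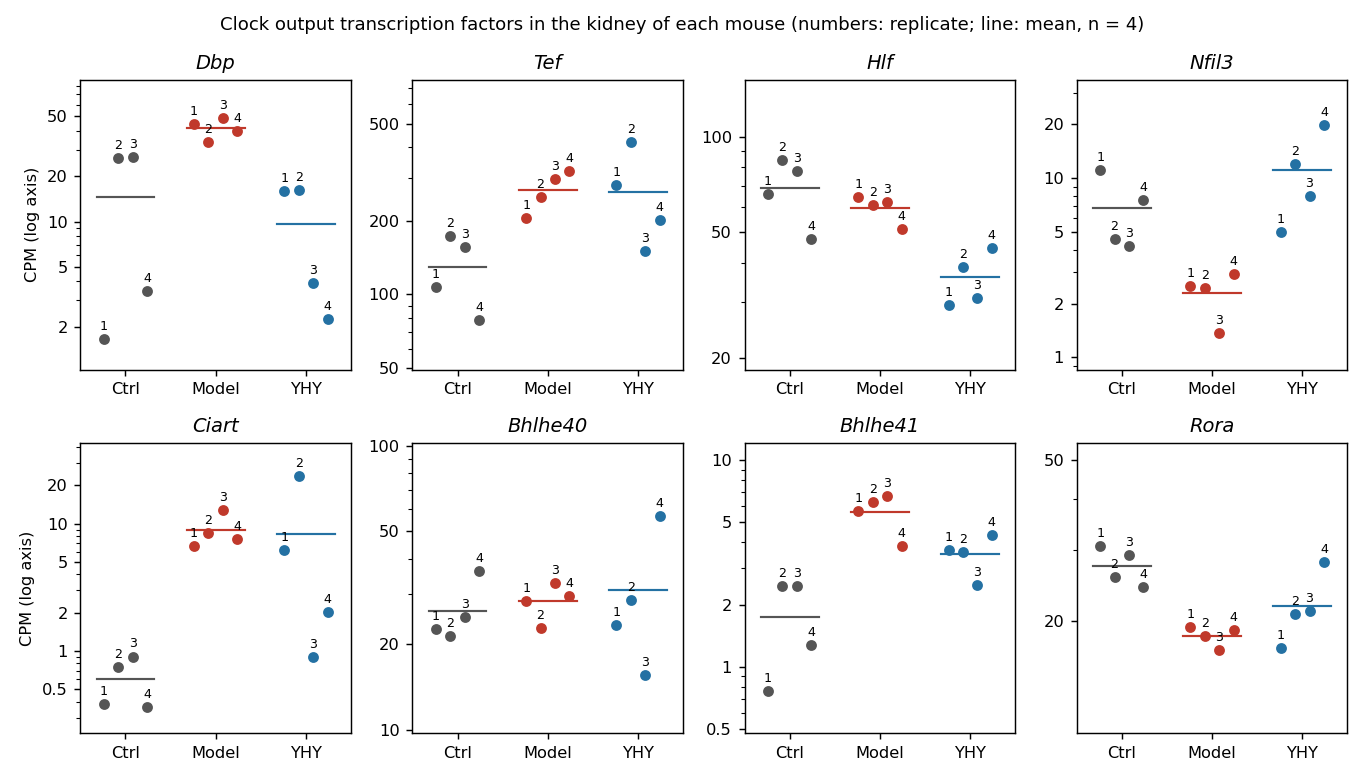
CPM on a log axis for each of the 8 genes, 1 panel a gene, with 1 point per mouse marked by its replicate number and a line at the mean of 4 mice. Dbp lay between 33.6 and 48.7 CPM in the Model mice and between 1.66 and 26.7 CPM in the Ctrl mice, while Nfil3 lay between 1.37 and 2.91 CPM in the Model mice, under all 8 other mice.

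Dbp, an activator of D-box genes and the most steeply rhythmic of the PAR bZIP genes in many tissues, was at 1.66, 26.6, 26.7 and 3.46 CPM in Ctrl 1 to 4, at 44.8, 33.6, 48.7 and 39.7 CPM in Model 1 to 4, and at 16.0, 16.2, 3.91 and 2.25 CPM in YHY 1 to 4. Every Model mouse was above every mouse of the other groups, while Ctrl and YHY overlapped. Inside Ctrl, mice 1 and 4 were far lower than mice 2 and 3, with the highest 16.1 times the lowest, and inside YHY, mice 3 and 4 were lower than mice 1 and 2, with a ratio of 7.21. In Model the ratio was 1.45. In bulk kidney RNA, fewer cells that express a gene and less RNA per cell cannot be told apart, here and for every gene that follows. The mean of 41.7 ± 6.56 CPM in Model against 14.6 ± 13.9 in Ctrl (SD, n = 4) gave a log2 fold change of 1.52 ± 0.70 (SE), which did not pass the test (edgeR adjusted P = 0.0992). YHY, at 9.60 ± 7.56 CPM, differed from Model by a log2 fold change of -2.13 ± 0.72, lower in 4 of 4 mice and also short of the threshold (edgeR adjusted P = 0.0629). That difference did pass without Ctrl 1 (-2.14, edgeR adjusted P = 0.0337) or without Ctrl 4 (-2.14, 0.0457), the Ctrl mice with the lowest levels. YHY against Ctrl was -0.61 ± 0.70 (edgeR adjusted P = 0.495), and turned to 0.13 over the 9 mice of the deposited group means (0.903). Sphk2, on the opposite strand, showed no call in any comparison (edgeR adjusted P = 0.753, 0.480 and 0.189) and stayed between 25.5 and 36.1 CPM in all 12 mice.

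Tef, the most abundant of the PAR bZIP activators here, was at 107, 174, 156 and 78.8 CPM in Ctrl 1 to 4, at 205, 250, 296 and 321 CPM in Model 1 to 4, and at 281, 421, 150 and 202 CPM in YHY 1 to 4. All Model mice were above all Ctrl mice, and YHY 3 alone fell into the Ctrl range. Tef was 2.08-fold higher in Model than in Ctrl, a log2 fold change of 1.05 ± 0.30 (SE; edgeR adjusted P = 0.0107). It was 2.04-fold higher in YHY than in Ctrl (log2 1.03 ± 0.30, edgeR adjusted P = 0.00851). Both calls were lost when libraries were scaled by their size alone, with log2 values of 0.64 (edgeR adjusted P = 0.0530) and 0.57 (0.0738), where the median of all genes moved to -0.39 and -0.33. Between YHY and Model the log2 difference was -0.02 ± 0.29 (edgeR adjusted P = 0.973), and its sign turned under several settings.

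Hlf, the remaining PAR bZIP activator, was at 65.8, 84.3, 77.8 and 47.5 CPM in Ctrl 1 to 4, at 64.7, 60.7, 62.4 and 51.0 CPM in Model 1 to 4, and at 29.3, 38.8, 30.9 and 44.5 CPM in YHY 1 to 4. Ctrl and Model overlapped, and every YHY mouse was under every other mouse. Hlf fell by 0.73 ± 0.18 on the log2 scale in YHY against Model (edgeR adjusted P = 0.0170), a call that ended without Model 3 (-0.72, edgeR adjusted P = 0.0523). Against Ctrl it fell by 0.94 ± 0.18 (edgeR adjusted P = 0.000539). Model against Ctrl was -0.21 ± 0.18 and was not called (edgeR adjusted P = 0.396). With scaling by library size alone that value was -0.62 and passed (edgeR adjusted P = 0.0134). In both comparisons with YHY, Hlf was called lower where Tef was not, and no test of the difference between these genes was run.

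Nfil3, the repressor that competes with the PAR bZIP proteins for D-boxes, was at 11.1, 4.56, 4.21 and 7.58 CPM in Ctrl 1 to 4, at 2.51, 2.43, 1.37 and 2.91 CPM in Model 1 to 4, and at 4.999, 12.0, 7.93 and 19.7 CPM in YHY 1 to 4. Every Model mouse was under all mice of the other groups, and Ctrl and YHY overlapped. Ctrl 1 and 4, low in Dbp, were the higher Ctrl mice for Nfil3, and YHY 4, lowest of its group in Dbp, was the highest of all mice for Nfil3. YHY 2 went the other way, with the highest Dbp of its group and more Nfil3 than YHY 1 or YHY 3. Nfil3 was 2.97-fold lower in Model than in Ctrl, a log2 fold change of -1.57 ± 0.41 (edgeR adjusted P = 0.00663). It was 4.82-fold higher in YHY than in Model (log2 2.27 ± 0.41, edgeR adjusted P = 0.00339). YHY against Ctrl was 0.70 ± 0.39 (edgeR adjusted P = 0.145), and was called only without YHY 1 (0.94, 0.0415). It was 0.27 without YHY 4 (edgeR adjusted P = 0.573) and near 0 over the 9 mice of the deposited group means (0.066, 0.906). Nfil3 was the 1 gene of the 8 called in YHY against Model as well as in Model against Ctrl. These comparisons share the Model mice, so their opposite signs are not separate observations.

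Ciart, also named Chrono, encodes a repressor of CLOCK and BMAL1 and was at 0.384, 0.749, 0.906 and 0.364 CPM in Ctrl 1 to 4, at 6.73, 8.53, 12.9 and 7.61 CPM in Model 1 to 4, and at 6.26, 23.9, 0.893 and 2.01 CPM in YHY 1 to 4. Every Model mouse was above every Ctrl mouse. YHY mice spread over a 26.7-fold range, from YHY 3 inside the Ctrl range to YHY 2 above all Model mice. The Ctrl levels rest on 16, 24, 37 and 16 counts. Ciart had the largest difference of the 8 genes in Model against Ctrl, 14.9-fold higher with a log2 fold change of 3.90 ± 0.77 (edgeR adjusted P = 0.000966). YHY against Ctrl was 3.77 ± 0.76 (edgeR adjusted P = 0.000710), and 2.34 ± 0.53 without YHY 2 (edgeR adjusted P = 0.00233). YHY against Model was -0.13 ± 0.66 (edgeR adjusted P = 0.930), and this moved to -1.55 without YHY 2 (0.0707) and to 0.25 without YHY 3. The opposite-strand gene C920021L13Rik, at 2.12 ± 0.239 CPM in Ctrl, was itself higher in Model, at 4.59 ± 0.926 CPM (edgeR adjusted P = 0.00199), and in YHY, at 5.76 ± 1.14 CPM (edgeR adjusted P = 0.000150). Its part in the Ciart values was not tested.

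Bhlhe40, the E-box repressor also known as DEC1, was at 22.6, 21.3, 24.9 and 36.2 CPM in Ctrl 1 to 4, at 28.4, 22.7, 32.7 and 29.6 CPM in Model 1 to 4, and at 23.4, 28.7, 15.6 and 56.7 CPM in YHY 1 to 4. The 3 groups overlapped, and YHY held both the lowest and the highest mouse. No comparison passed, with log2 fold changes of 0.11 ± 0.30 in Model against Ctrl, 0.13 ± 0.30 in YHY against Model and 0.24 ± 0.30 in YHY against Ctrl (edgeR adjusted P = 0.798, 0.821 and 0.519). The signs are not stable: over the 9 mice of the deposited group means all 3 turned negative, each did so without at least 1 single mouse, and with scaling by library size alone 2 of them did.

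Bhlhe41, or DEC2, is the close relative of Bhlhe40 and was at 0.768, 2.47, 2.47 and 1.27 CPM in Ctrl 1 to 4, at 5.70, 6.24, 6.71 and 3.85 CPM in Model 1 to 4, and at 3.66, 3.59, 2.49 and 4.34 CPM in YHY 1 to 4. Every db/db mouse, with or without YHY, was above every Ctrl mouse, by a narrow margin for YHY 3, and as for Dbp the lower Ctrl mice were 1 and 4. Bhlhe41 was 3.23-fold higher in Model than in Ctrl (log2 1.69 ± 0.35, edgeR adjusted P = 0.00155). In YHY it was 2.02-fold higher than in Ctrl (log2 1.02 ± 0.35, edgeR adjusted P = 0.0246). This second call ended without Ctrl 1 (0.70, edgeR adjusted P = 0.0922), Ctrl 4 (0.83, 0.0871) or YHY 4 (0.89, 0.0586), with scaling by library size alone (0.60, 0.161) and with only the 8 mice compared (0.99, 0.0568). YHY against Model was -0.67 ± 0.35 (edgeR adjusted P = 0.214), with YHY 4 inside the Model range.

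Rora is an activator, a nuclear receptor that drives genes such as Arntl and Nfil3 through ROR elements, and belongs to the list for that role and not as a repressor. It was at 30.6, 25.7, 29.1 and 24.3 CPM in Ctrl 1 to 4, at 19.3, 18.4, 16.9 and 19.0 CPM in Model 1 to 4, and at 17.1, 20.8, 21.2 and 28.1 CPM in YHY 1 to 4. Every Model mouse was under every Ctrl mouse, within a narrow range, while YHY reached from the Model range into the Ctrl range. Rora fell by 0.58 ± 0.15 on the log2 scale in Model against Ctrl, a 1.49-fold difference (edgeR adjusted P = 0.00798). YHY against Model was 0.24 ± 0.15 (edgeR adjusted P = 0.321) and YHY against Ctrl -0.33 ± 0.15 (edgeR adjusted P = 0.0821). The last of these passed without Ctrl 4 (-0.45, edgeR adjusted P = 0.0333), Model 1 (-0.39, 0.0395) or YHY 4 (-0.48, 0.0117), with scaling by library size alone (-0.77, 0.00352), over the 9 mice of the deposited group means (-0.55, 0.00895) and by the study's limits.

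**Figure D2:**
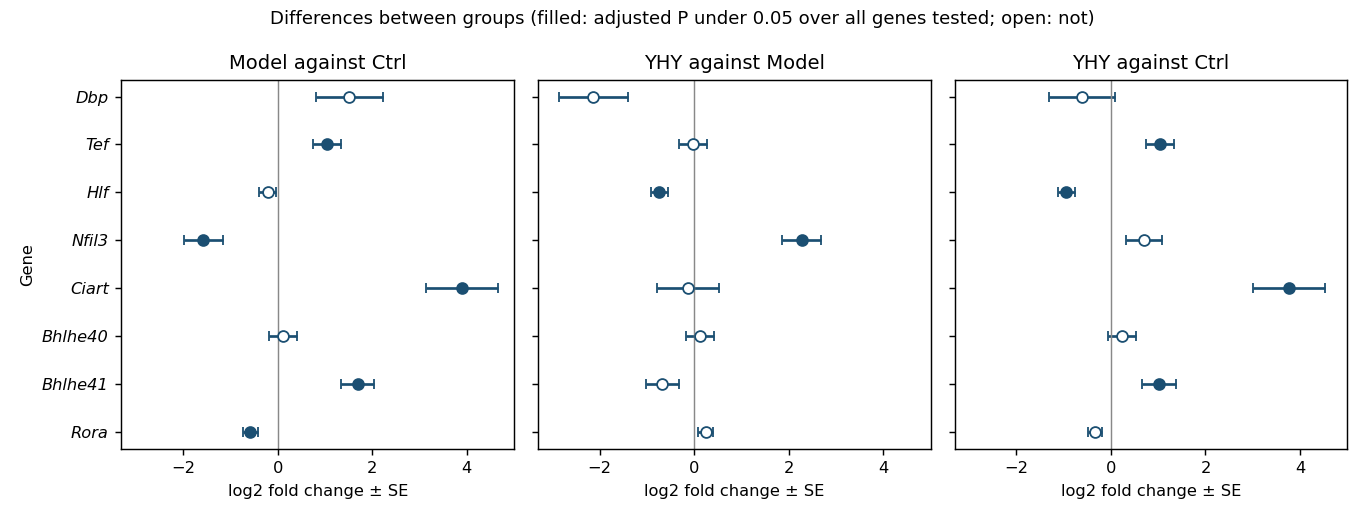
Log2 fold change with its SE for the 8 genes in the 3 comparisons, filled where the edgeR adjusted P was under 0.05 over all 17431 genes tested and open where it was not. Model against Ctrl had Ciart at 3.90 and Nfil3 at -1.57, YHY against Model had Nfil3 at 2.27, and YHY against Ctrl had Ciart at 3.77.

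In the kidney of untreated db/db mice, Tef, Ciart and Bhlhe41 were higher and Nfil3 and Rora lower than in Ctrl, so 5 of the 8 genes were called, 3 higher and 2 lower (2 and 3 with scaling by library size alone, where Tef was not called and Hlf was called lower). The 3 called higher stand beside 19.6% of the 17431 genes tested that were called higher, and the 2 called lower beside 18.5%. Both member shares are above these, but with 8 genes picked by name neither is a test. All Model mice were above all Ctrl mice for Tef, Ciart, Bhlhe41 and Dbp, the last not called, and under them for Nfil3 and Rora. The share of all genes tested that separate in this way is not given here, so nothing about the members as a group is read from this. The median log2 fold change of the 8 was 0.58, beside 0.04 for all genes tested.

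Of 11 core clock genes outside the 8, 5 were called higher, 2 lower and 4 not called in Model against Ctrl. Their median log2 fold change was 0.66. These counts, and those of the other lists for this comparison, stand beside 19.6% of all genes tested called higher and 18.5% called lower. No list was tested as a group. Per1, a repressor of the loop, was at 8.29, 20.8, 11.5 and 18.6 CPM in Ctrl 1 to 4 and at 65.1, 91.9, 93.1 and 106 CPM in Model 1 to 4. Its levels did not overlap between these groups, and it rose by 2.59 ± 0.35 on the log2 scale (edgeR adjusted P = 5.42e-05), followed by Per2 (1.87 ± 0.31, 0.000234) and Cry2 (1.55 ± 0.28, 0.000520). Arntl, the gene of BMAL1, was at 14.2, 4.84, 6.02 and 14.7 CPM in Ctrl 1 to 4 and at 2.19, 4.81, 1.92 and 3.72 CPM in Model 1 to 4. It was called lower (-1.66 ± 0.56, edgeR adjusted P = 0.0276), but Ctrl 2 and Model 2 almost coincided. The Arntl call ended without Ctrl 1 (-1.49, edgeR adjusted P = 0.0657), Ctrl 4 (-1.46, 0.0637), Model 1 (-1.57, 0.0604), Model 3 (-1.49, 0.0807) or Model 4 (-1.75, 0.0510). Clock fell by 0.74 ± 0.18 (edgeR adjusted P = 0.00512). As with Dbp and Bhlhe41, Ctrl 1 and 4 stood apart from Ctrl 2 and 3 in Arntl, here on the high side.

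Lists by the element usually assigned to a gene, which share genes with the members and the core clock, gave the following counts for Model against Ctrl, with no test of a difference between lists. Of 13 genes usually assigned to E-boxes, 6 of which are members, 8 were called higher and 0 lower by edgeR, with a median log2 fold change of 1.50. Of 5 genes assigned to ROR elements, 1 of which is Nfil3, 0 were called higher and 3 lower (Arntl, Nfil3 and Clock), with a median of -1.57. Of 6 kinases and ubiquitin ligase subunits that act on clock proteins, Csnk1e was called higher (0.66 ± 0.17, edgeR adjusted P = 0.00736) and Fbxw11 lower (-0.61 ± 0.16, 0.00648), with a median of 0.17. The Csnk1e call was lost with scaling by library size alone (0.22, edgeR adjusted P = 0.497).

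Genes known as PAR bZIP targets, mostly from liver and brain, went both ways in Model against Ctrl. Of 12 listed, 9 could be tested, and Cyp7a1, a liver gene, had 0 counts in every mouse. Acot2 (1.06 ± 0.21, edgeR adjusted P = 0.00107), Cyp2a5 (2.18-fold, 0.0196) and Pdxk, which encodes pyridoxal kinase (0.69 ± 0.23, 0.0239), were called higher. Cyp2a4 (-1.61 ± 0.22, edgeR adjusted P = 5.51e-05), Acot1 (-1.10 ± 0.38, 0.0322) and Por, the electron donor of cytochrome P450 enzymes (-0.63 ± 0.21, 0.0266), were called lower. The median of the 9 was -0.07. Cyp2a4 and Cyp2a5 are near-identical copies and the Acot genes are related to each other, and the counting could have split reads between such genes. Acot1 was at 96.8 CPM in Ctrl 4 against 31.8 to 41.2 CPM in the other Ctrl mice, and without Ctrl 4 its value was -0.64 (edgeR adjusted P = 0.131). Its call also ended without Model 1 (-0.997, 0.0674), Model 3 (-1.11, 0.0666) or Model 4 (-1.14, 0.0601). Por lost its call without Ctrl 2 (-0.53, edgeR adjusted P = 0.0773), Model 2 (-0.62, 0.0621), Model 3 (-0.65, 0.05001) or Model 4 (-0.62, 0.0581), and over the 9 mice that enter the deposited group means (-0.56, 0.0563). Pdxk lost its call without Ctrl 1 (0.57, edgeR adjusted P = 0.0917), Ctrl 3 (0.54, 0.0975), Model 2 (0.64, 0.0669) or Model 3 (0.68, 0.0554). Cyp2a5 did so without Ctrl 3 (0.93, edgeR adjusted P = 0.0727), Model 1 (0.83, 0.0784) or Model 3 (1.04, 0.0527). With scaling by library size alone, Acot2 (0.63, edgeR adjusted P = 0.0539), Cyp2a5 (0.71, 0.129) and Pdxk (0.25, 0.389) were not called.

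Kidney genes known for a daily rhythm showed 1 called higher and 2 lower of 9 tested in Model against Ctrl, with a median of 0.11. Usp2, a ubiquitin protease under clock control, rose by 1.86 ± 0.29 (edgeR adjusted P = 0.000162) on the log2 scale. The water channels Aqp4 (-2.43 ± 0.53, edgeR adjusted P = 0.00198) and Aqp2 (-1.18 ± 0.42, 0.0354) were called lower. The Aqp2 call ended without Ctrl 1 (-1.19, edgeR adjusted P = 0.0653), Ctrl 4 (-0.82, 0.139), Model 2 (-1.08, 0.0981), Model 3 (-1.16, 0.0806) or Model 4 (-1.19, 0.0725), with upper-quartile scaling (-1.07, 0.0553) and with DESeq2 (-1.18, 0.0760). Of 7 genes induced by glucocorticoids, hormones that also set the phase of kidney clocks, 4 were called higher and 0 lower by edgeR, with a median of 0.80, among them Zbtb16 (2.98 ± 0.44, edgeR adjusted P = 0.000105), Per1 and Fkbp5 (0.97 ± 0.24, 0.00476). Fkbp5 lost its call with scaling by library size alone (0.54, edgeR adjusted P = 0.119). Summed over the 7 genes, the level was 332, 305, 268 and 302 CPM in Ctrl 1 to 4 and 519, 473, 544 and 583 CPM in Model 1 to 4.

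In db/db mice given YHY, the Nfil3 level was higher and the Hlf level lower than in untreated db/db mice, and these 2 were the members called. The 1 called higher stands beside 5.63% of all genes tested that were called higher, and the 1 called lower beside 7.62%. With 8 genes, 1 is the smallest count above 0, and nothing about the members as a group is read from it. All YHY mice were above all Model mice for Nfil3, and under them for Hlf and for Dbp, the last not called. The share of all genes tested that separate in this way is not given here. The median log2 fold change of the 8 was -0.08, beside 0.02 for all genes tested. Tef, Ciart, Bhlhe40, Bhlhe41 and Rora overlapped between the groups.

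Core clock genes outside the 8 gave 2 called higher and 1 lower of 11 in YHY against Model, with a median of 0.39. These counts, and those of the other lists for this comparison, stand beside 5.63% of all genes tested called higher and 7.62% called lower. No list was tested as a group. Cry1, a repressor of the loop, was at 4.09, 3.91, 2.24 and 2.27 CPM in Model 1 to 4 and at 10.9, 8.35, 13.6 and 14.0 CPM in YHY 1 to 4, without overlap (1.90 ± 0.33, edgeR adjusted P = 0.00239). Nr1d1, which encodes REV-ERB alpha, a repressor of Arntl and Nfil3, was at 40.9, 29.8, 32.6 and 24.5 CPM in Model 1 to 4 and at 14.9, 13.8, 10.4 and 6.20 CPM in YHY 1 to 4, and it fell by 1.50 ± 0.26 on the log2 scale (edgeR adjusted P = 0.00231). No YHY mouse reached the Model range. Arntl was at 2.94, 5.14, 17.1 and 23.8 CPM in YHY 1 to 4, so YHY 1 and 2 were close to the Model mice and YHY 3 and 4 far above them. Its log2 fold change was 1.96 ± 0.56 (edgeR adjusted P = 0.0309), a call that ended without Model 1 (1.81, edgeR adjusted P = 0.0888), Model 3 (1.79, 0.0998), Model 4 (2.05, 0.0588), YHY 3 (1.76, 0.0690) or YHY 4 (1.42, 0.0833), and over the 9 mice of the deposited group means (1.30, 0.158).

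In YHY against Model the same lists were called as follows. Of 5 genes assigned to ROR elements, 3 were called higher (Nfil3, Arntl and Cry1) and 0 lower by edgeR, with a median log2 fold change of 1.90, and of 13 assigned to E-boxes, 0 were called higher and 2 lower (Nr1d1 and Hlf), with a median of -0.13. Of the 9 PAR bZIP targets tested, edgeR called 0, with a median of 0.05. Among the rhythmic kidney genes, Sgk1, a kinase that activates sodium transport (1.06 ± 0.33, edgeR adjusted P = 0.0432), and Nampt (0.69 ± 0.15, 0.00783) were called higher, and the median of the 9 tested was 0.52. Nampt was not called with scaling by library size alone (0.70, edgeR adjusted P = 0.0668). Sgk1, also among the 7 glucocorticoid-induced genes, was at 165, 168, 75.1 and 312 CPM in YHY 1 to 4 against 91.6, 78.6, 83.9 and 89.8 CPM in Model 1 to 4, so YHY 3 lay under the Model mice. Leaving out any mouse but Ctrl 2, Ctrl 4 or YHY 3 ended its call, with values from 0.66 without YHY 4 to 1.10 without YHY 1 and edgeR adjusted P from 0.0538 to 0.129, and so did scaling by library size alone (1.02, 0.0789) and the 9 mice of the deposited group means (0.70, 0.127). Klf9 was the gene of that list called lower (-0.70 ± 0.19, edgeR adjusted P = 0.0215), a call that ended without Model 3 (-0.69, 0.0622), YHY 1 (-0.64, 0.0555) or YHY 3 (-0.62, 0.0571). The median of the 7 glucocorticoid-induced genes was 0.52. Fbxw11 was the 1 of 6 clock kinase and ligase genes called (-0.69 ± 0.16, edgeR adjusted P = 0.0110), with a median of -0.04.

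Compared with non-diabetic mice, YHY mice had higher Tef, Ciart and Bhlhe41 and lower Hlf, so 4 of the 8 genes were called. The 3 called higher stand beside 26.1% of all genes tested that were called higher, and the 1 called lower beside 24.2%. The first share of the 8 is above its background and the second under it, but with 8 genes picked by name neither count is read as a result about the members. With scaling by library size alone 1 was called higher (Ciart) and 2 lower (Hlf and Rora). All YHY mice were above all Ctrl mice for Bhlhe41 and under them for Hlf. The share of all genes tested that separate in this way is not given here. The median log2 fold change of the 8 was 0.47, beside 0.10 for all genes tested. This comparison shares its mice with the other comparisons.

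Of the 11 core clock genes, 5 were called higher and 1 lower in YHY against Ctrl, with a median of 0.30. These counts, and those of the other lists for this comparison, stand beside 26.1% of all genes tested called higher and 24.2% called lower. No list was tested as a group. Per1 (2.93 ± 0.35, edgeR adjusted P = 7.43e-06), Per2 (2.60 ± 0.31, 7.39e-06) and Per3 (1.89 ± 0.45, 0.00229) were higher, and Nr1d1 was lower (-0.80 ± 0.26, 0.0164). Over the 9 mice of the deposited group means Nr1d1 was at -0.58 and not called (edgeR adjusted P = 0.0518). Of the 13 E-box genes 8 were called higher and 2 lower (median 1.02), and of the 5 ROR element genes Cry1 alone was called (1.51 ± 0.32, edgeR adjusted P = 0.00103), with a list median of 0.30. Of the 9 PAR bZIP targets tested, 3 were called higher and 2 lower (median 0.06), with Cyp2a4 the lowest (-2.22 ± 0.22, edgeR adjusted P = 1.61e-06). Pdxk, 1 of the 3, lost its call with scaling by library size alone (0.27, edgeR adjusted P = 0.335) and without Ctrl 1 (0.60, 0.0581), Ctrl 3 (0.57, 0.0629) or YHY 2 (0.54, 0.0543). Rhythmic kidney genes had 6 called higher and 1 lower of 9 (median 0.69), among them Sgk1 (1.43 ± 0.33, edgeR adjusted P = 0.00196) and, lower, Aqp2 (-1.42 ± 0.42, 0.0101). Glucocorticoid-induced genes had 5 of 7 called higher (median 1.43), led by Zbtb16 (4.03 ± 0.45, edgeR adjusted P = 4.00e-06). Tsc22d3, counted in both of these lists, was not called with scaling by library size alone (0.57, edgeR adjusted P = 0.0664). Csnk1e (0.99 ± 0.17, edgeR adjusted P = 0.000204) and Fbxw11 (-1.30 ± 0.16, 8.83e-06) were again called higher and lower among the 6 kinase and ligase genes (median 0.23), Csnk1e not so with scaling by library size alone (0.58, 0.0552).

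**Figure D3:**
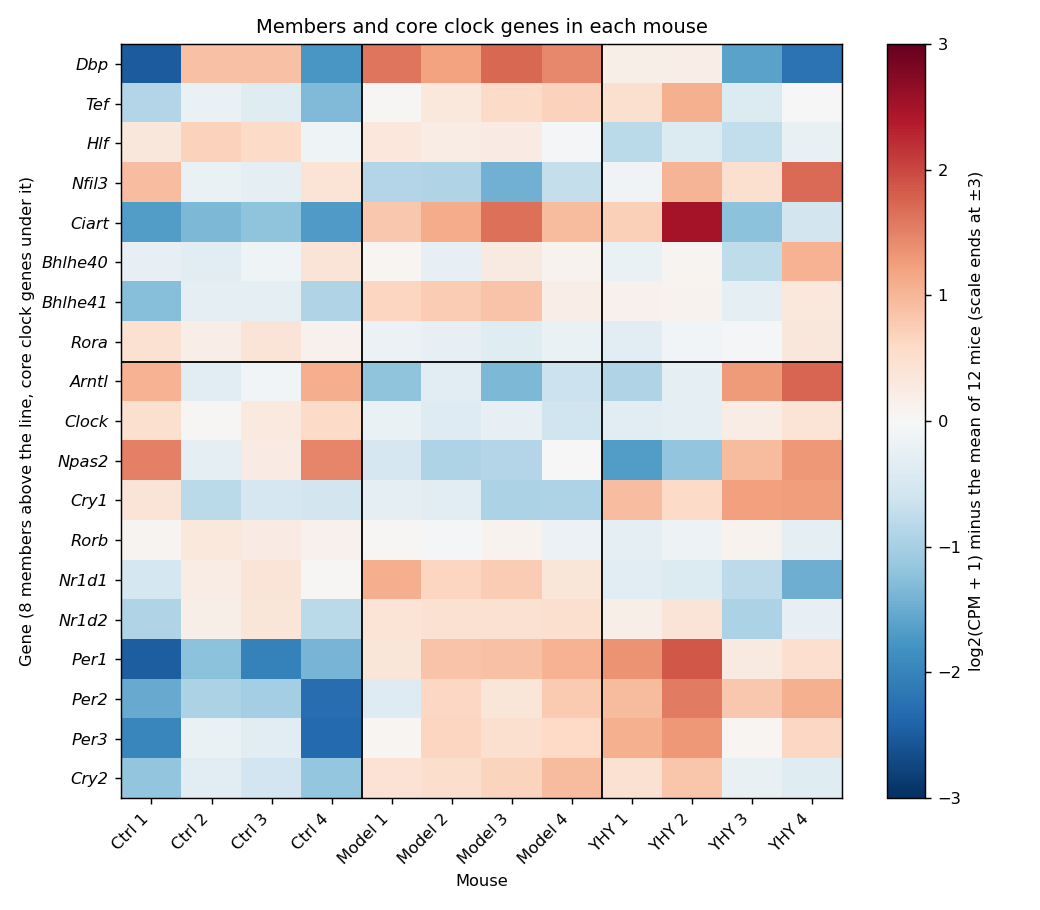
log2(CPM + 1) minus the mean of 12 mice, for the 8 genes above the line and 11 core clock genes under it, with a column per mouse. Dbp was at 1.66 and 3.46 CPM in Ctrl 1 and 4, where Arntl was at 14.2 and 14.7 CPM, and at 3.91 and 2.25 CPM in YHY 3 and 4, where Arntl was at 17.1 and 23.8 CPM.

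Mice of a single group also differed in several of these genes. The ratio of Dbp to Nfil3 CPM, an activator over the repressor of the same sequences, was 0.149, 5.83, 6.34 and 0.456 in Ctrl 1 to 4, 17.9, 13.8, 35.6 and 13.7 in Model 1 to 4, and 3.21, 1.35, 0.493 and 0.114 in YHY 1 to 4. All Model mice were above all others, and the Ctrl mice spanned almost the whole of the range under them. To see whether genes varied together within groups, the deviations of log2(CPM + 1) from each group's mean were correlated over 12 mice for the 28 pairs of the 8 genes, with exact two-sided permutation tests that shuffled mice within groups. After adjustment over the 28 pairs, 0 passed by Pearson's r and 0 by Spearman's rho, while 4 had an unadjusted Pearson p under 0.05. The smallest p that the 13824 permutations can give is 7.23e-05.

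Tef and Ciart had the strongest correlation, with r = 0.81 (exact permutation p = 0.00311, adjusted 0.0871) and rho = 0.83 (exact p = 0.00579, adjusted 0.162). Leaving out YHY 2 and 3, the mice farthest from the median of Tef, gave r = 0.61. Leaving out Model 4 alone gave r = 0.85 with an adjusted exact permutation p of 0.0243. Each of the 12 mice was left out in turn, an alternative chosen after seeing the data, so that value is not read as a pass. Dbp and Nfil3, whose deviations had the same sign in 3 of 12 mice (Model 1, YHY 2 and YHY 3), did not pass, with r = -0.73 (exact permutation p = 0.0550, adjusted 0.276) and rho = -0.69 (exact p = 0.0601, adjusted 0.337), and r = -0.61 without Ctrl 1 and 3. Dbp and Tef had r = 0.76 (exact permutation p = 0.0488, adjusted 0.276) and rho = 0.77 (exact p = 0.0439, adjusted 0.307), and r = 0.81 without Ctrl 1 and 3. For Dbp and Ciart the values were r = 0.58 (exact permutation p = 0.0331, adjusted 0.276) and rho = 0.73 (exact p = 0.0211, adjusted 0.296), with r = 0.67 without the same mice. Nfil3 and Rora had r = 0.75 (exact permutation p = 0.0386, adjusted 0.276) and rho = 0.56 (exact p = 0.119, adjusted 0.445). That relation rests on YHY 1 and 4, without which r was 0.37.

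**Figure D4:**
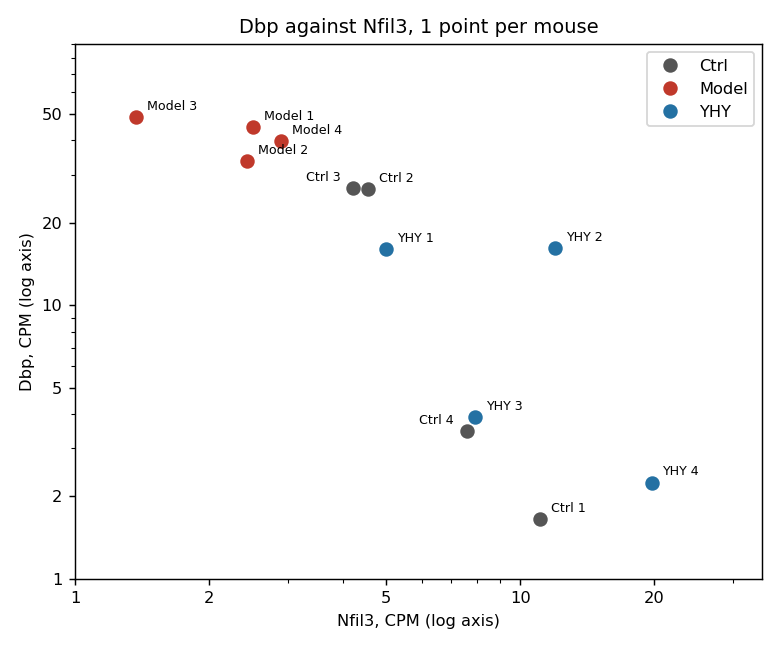
Dbp against Nfil3, both in CPM on log axes, 1 point per mouse. The 4 Model mice sit at 33.6 to 48.7 CPM of Dbp and 1.37 to 2.91 CPM of Nfil3, and Ctrl 1 lies at 1.66 and 11.1 CPM, YHY 4 at 2.25 and 19.7 CPM.

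Among 14129 genes with a symbol and a mean of at least 1 CPM, those whose deviations over the 12 mice were most like Dbp's were Nrde2 (r = 0.91, rho = 0.87), Gypc (0.90, 0.85), Tpgs2 (0.89, 0.92), Nr1d2 (0.88, 0.89) and Zmym4 (0.88, 0.82). Nr1d2, the REV-ERB beta gene, was at 24.5, 52.6, 59.7 and 26.0 CPM in Ctrl 1 to 4, at 62.6, 64.5, 63.9 and 65.4 CPM in Model 1 to 4, and at 52.9, 60.8, 23.4 and 39.0 CPM in YHY 1 to 4. Like Dbp it was low in Ctrl 1 and 4 and in YHY 3 and 4. Most like Nfil3 were Zfp72 (r = 0.94, rho = 0.89), Wdr82 (0.92, 0.86), Zfp236 (0.92, 0.81), Ago2 (0.91, 0.92) and Fnta (0.91, 0.92). Without the 2 mice farthest from the median, r lay between 0.82 and 0.93 for the Dbp genes and between 0.81 and 0.88 for the Nfil3 genes. These are the highest of many values and carry no test.

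Other properties of the tissue moved with the groups, and their part in the results above was not tested. Nuclear-retained RNA, read from Malat1, Neat1, Meg3 and Kcnq1ot1, summed to 366, 378, 305 and 296 CPM in Ctrl 1 to 4, 559, 1056, 735 and 655 CPM in Model 1 to 4, and 1333, 1299.7, 1118 and 1532 CPM in YHY 1 to 4, with no overlap between groups. Neat1 was the most abundant of the 4, at 189 to 908 CPM, and no marker was at 0. Against Ctrl, all 4 were called higher in Model (Kcnq1ot1 by 2.86 ± 0.33, edgeR adjusted P = 1.59e-05) and in YHY (Meg3 by 3.01 ± 0.60, 0.000617), and against Model 2 were higher in YHY, namely Malat1 (0.93 ± 0.22, edgeR adjusted P = 0.0127) and Neat1 (0.76 ± 0.19, 0.0162). The Neat1 call ended without Model 3 (0.75, edgeR adjusted P = 0.0534) or Model 4 (0.68, 0.0503), and over the 9 mice of the deposited group means (0.60, 0.0515). The list medians were 1.78, 0.67 and 2.49 in Model against Ctrl, YHY against Model and YHY against Ctrl.

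The 12 kidney markers summed to 6051, 5988, 6280.5 and 6439 CPM in Ctrl 1 to 4, 4702, 4447, 4459 and 4149 CPM in Model 1 to 4, and 3684, 4279, 4698 and 5146 CPM in YHY 1 to 4. The same count, 2 higher and 4 lower, was called against Ctrl in Model (median 0.01) and in YHY (median 0.01), and edgeR called 0 of 12 in YHY against Model (median -0.12). Umod of the thick ascending limb (-2.86 ± 0.38, edgeR adjusted P = 5.43e-05) and Lrp2 of the proximal tubule (-1.68 ± 0.29, 0.000399) were lower in Model than in Ctrl, while Nphs1 of podocytes (1.86 ± 0.25, 5.44e-05) and Slc12a3 of the distal tubule (1.33 ± 0.22, 0.000256) were higher. Other markers of the same segments did not follow Umod and Lrp2: Slc12a1 of the thick ascending limb (-0.05, edgeR adjusted P = 0.910) and Slc34a1 (0.06, 0.893) and Slc5a2 (0.42, 0.562) of the proximal tubule were not called. None of these genes was at 0.

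Leukocytes also express Nfil3, Rora, Bhlhe40 and Bhlhe41. The 10 leukocyte markers, of which 7 could be tested, summed to 185, 125, 185 and 151 CPM in Ctrl 1 to 4, 171, 188, 232 and 288 CPM in Model 1 to 4, and 309, 461, 203 and 165 CPM in YHY 1 to 4. Lyz2 was the most abundant, at 65.7 to 362 CPM, while Cd3e, Cd79a, Ms4a1 and Nkg7, which define lymphocytes, were under 1 CPM in every mouse. The macrophage marker Cd68 was the 1 marker called in Model against Ctrl (1.05 ± 0.28, edgeR adjusted P = 0.00730), a call lost with scaling by library size alone (0.62, 0.0965). In YHY against Ctrl 3 were called higher, Cd68 (1.79 ± 0.28, edgeR adjusted P = 7.67e-05), Itgam (1.58 ± 0.43, 0.00600) and Lyz2 (1.25 ± 0.31, 0.00355), and edgeR called 0 of 7 in YHY against Model. The list medians were 0.02, 0.51 and 0.42 in the 3 comparisons, in the same order as before.

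Of 6 adipocyte markers 2 could be tested and edgeR called 0 in any comparison (medians 0.59, -0.09 and 0.50). They summed to 57.0, 41.8, 62.9 and 53.7 CPM in Ctrl 1 to 4, 57.8, 54.8, 48.6 and 60.1 CPM in Model 1 to 4, and 66.9, 50.8, 89.1 and 54.9 CPM in YHY 1 to 4. Nearly all of this was Fabp4, which endothelial cells also express, and Adipoq, Plin1, Lep and Retn were under 1 CPM in every mouse. Of 4 adrenal cortex markers, Cyp11b2 had 0 counts in all mice, Cyp11b1 and Cyp11a1 were under 1 CPM in every mouse, and Star, the most abundant at 1.27 to 5.67 CPM, was called higher in Model (1.32 ± 0.27, edgeR adjusted P = 0.00128) and in YHY (1.10 ± 0.27, 0.00294) against Ctrl and was at -0.22 in YHY against Model, where it was not called. With scaling by library size alone Star was not called in YHY against Ctrl (0.69, edgeR adjusted P = 0.0572). The sums of the 4 markers were 1.90, 2.00, 1.27 and 1.82 CPM in Ctrl 1 to 4, 3.09, 6.05, 4.43 and 3.63 CPM in Model 1 to 4, and 3.40, 3.26, 3.80 and 3.95 CPM in YHY 1 to 4.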

How the data were processed

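The authors deposited whole-number counts of reads per gene for 57490 genes in 12 mice, not normalized. The submitters' processing notes name FastQC 0.11.9, Trimmomatic 0.39, HISAT2 2.2.1, SAMtools 1.12, featureCounts 2.0.1, DESeq2 1.34.0, R 4.1.2 and GRCm39, and the protocol names oligo(dT) enrichment. It mentions dUTP for strand-specific libraries without saying that these are. The authors' comparison tables (log2 fold changes, p-values, KEGG enrichment) and their 12 per-mouse columns were not used.

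Counts were fitted with edgeR 4.0.16 in R 4.3.3 (filterByExpr, TMM factors, glmQLFit and glmQLFTest, two-sided, 3 groups of 4 mice in 1 fit), which left 17431 genes. P-values were adjusted by Benjamini-Hochberg over all of these, and a gene was called at an adjusted P under 0.05. SE is the absolute log2 fold change divided by the square root of F. The steps were tested on simulated counts. RPKM used the deposited gene lengths. Correlations were computed with numpy 2.4.6 and pandas 2.3.3 under Python 3.11.15, and plots drawn with matplotlib 3.10.9. No replicate pair of a group was as close as sampling noise would make it.

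Named from each list were up to 3 genes with the largest rise and fall among those called, and for likeness the 5 genes with the highest r. Other genes are named for their counts or as markers, after their values were seen. Members and lists were chosen with earlier results of these data known, and 2 list genes, later taken out for a reason other than their values, are not reported here. Their removal moved counts and medians of the lists they were in. Alternatives were DESeq2 1.42.0, upper-quartile scaling, library size alone, no filter, removal of mitochondrial transcripts, a minimum of 10 counts in every sample, the replicate number as a block, the 9 mice of the deposited group means, a fit of the 8 mice compared alone, the study's limits (fold over 1.2, unadjusted P under 0.05) and each mouse left out.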

Additional observations from a re-analysis of the deposited data

Results flagged for a closer look

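Dixon's test for a mouse far from its group was run on 159 groups of 4 mice and passed its 95% value in 5, and chance passes about 1 in 20 groups. Of the 24 groups of the 8 clock output factors, 0 passed. The gap to the nearest mouse, divided by the group's range, was 0.962 for the mitochondrial share of Ctrl 2 (22.7% against 18.4% to 18.6% in the other Ctrl mice) and 0.933 for that of YHY 2 (64.6% against 53.8% to 54.6%). It was 0.856 for Acot1 in Ctrl 4 (96.8 CPM against 31.8 to 41.2). For Csnk1e in YHY 1 it was 0.883 (23.3 CPM against 14.3 to 15.3), and for Slc12a3 in YHY 2 it was 0.853 (466 CPM against 276 to 304).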

How the results depend on the processing

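Of 240 member values under settings other than a single mouse left out, 218 kept their direction and their side of the threshold, 4 lost the call, 10 gained it and 8 changed sign, and of 288 values with 1 mouse left out these counts were 268, 4, 6 and 10. The members called were 5 in Model against Ctrl (6 with no filter or the study's limits, and 5 with any mouse left out, the 3 higher and 2 lower becoming 2 and 3 with library size alone), 2 in YHY against Model (3 with no filter, with only the 8 mice compared and with the study's limits, and 1 to 3 with 1 mouse left out) and 4 in YHY against Ctrl (3 with library size alone or only the 8 mice compared, 5 with the 9 mice or the study's limits, and 3 to 5 with 1 mouse left out). Dbp was called with no filter in YHY against Model (edgeR adjusted P = 0.000281) and in Model against Ctrl (0.00374), and in the first also with only the 8 mice compared (0.0253). The cause was not tested.

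No value that changed sign was called. With library size alone Bhlhe40 was at -0.34 against Ctrl in Model and -0.25 in YHY. Over the 9 mice of the deposited group means Bhlhe40 was at -0.030, -0.32 and -0.35 in Model against Ctrl, YHY against Model and YHY against Ctrl, Ciart at 0.065 in YHY against Model and Dbp at 0.13 in YHY against Ctrl. With only the 8 mice compared Tef was at 0.027 in YHY against Model. With 1 mouse left out Bhlhe40 ranged from -0.00222 to 0.25, from -0.34 to 0.35 and from -0.23 to 0.46 in the 3 comparisons, Ciart from -1.55 to 0.25 and Tef from -0.34 to 0.17 in YHY against Model. Pairs of members with an adjusted P under 0.05 were 0 to 1 with 1 mouse left out, an alternative chosen after seeing the data, and 0 with a pseudocount of 0.1 or library size alone.

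With the replicate block the members called were 6, 2 and 4 in the 3 comparisons, Dbp passed in Model against Ctrl (2.00, edgeR adjusted P = 0.0486), and Arntl did not pass in YHY against Model (1.74, 0.0712). The numbers do not pair the mice: same-numbered mice had correlations of their deviations from -0.17 to 0.12 over 12 pairs, and 3 of 12 mice correlated best with a mouse of their own number.

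Against Ctrl, the median of all genes was 0.04 for Model and 0.10 for YHY, and became -0.39 and -0.33 with library size alone, and 0.14 and 0.22 with upper-quartile scaling. Genes called higher were 1547 in place of 3412 and lower 5667 in place of 3219 in Model against Ctrl (21.4% higher in place of 51.5%), 491 in place of 982 and 686 in place of 1329 in YHY against Model, and 2365 higher in place of 4547 in YHY against Ctrl (28.4% higher in place of 51.9%), all with library size alone. In YHY against Model, 692 genes were lower with only the 8 mice compared, 2429 were higher and 2559 lower with the study's limits, 419 and 727 without Model 3, and 634 and 600 were higher without Model 1 and Model 4. Counts of 16 to 37 per Ctrl mouse limit Ciart, and of 30 to 78 per Model mouse Nfil3.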
